A study of Zea mays with 109 samples.

Results

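The data were searched for 3 maize genes of embryo maturation and seed oil, which were followed through the total RNA, the ribosome-bound RNA and the protein pair list of the inbred line B73. They were vp1 (Zm00001d042396), lec1 (Zm00001d017898) and dgat1-2 (Zm00001d036982), chosen by name, and all 3 were listed among 48367 entries in total RNA, among 39498 entries in ribosome-bound RNA and among 25147 genes in the pair list. The files give identifiers without names, so the symbols are those under which the genes were chosen, and no annotation used here could test the link. The study charted RNA, ribosome occupancy and protein contacts over the organs of 1 inbred line. Plants were kept at 25 °C with 12 h of light and 12 h of dark, no group was mutant or treated, and each tissue was a single library made from a mixture of 3 replicates of 5 to 10 plants. Total RNA covered the embryo and the endosperm (1 library each, labelled stage R2), 11 leaf, 6 inflorescence, 3 SAM (shoot apical meristem), 2 root and 2 stem libraries. Ribosome-bound RNA covered the embryo and the endosperm, again with 1 library each, 8 leaf and 4 inflorescence libraries, and 2 libraries each for SAM, root and stem. The pair list stood on 11 samples of cDNA pools, some of them replicates of the same pool. Among the pools were 1 of embryo and 1 of endosperm, each at 15 and 25 days after pollination.

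A maize kernel holds an embryo, which stores oil, and an endosperm, which stores mainly starch and storage protein. VP1 (Viviparous-1) is a transcription factor with a B3 DNA-binding domain that acts with abscisic acid in seed maturation, and kernels without it can sprout on the ear. LEC1 (LEAFY COTYLEDON 1) is a subunit of the NF-Y complex that binds CCAAT sequences, and in Arabidopsis it is known as a regulator of embryo development that acts upstream of storage programmes. DGAT1-2 is a diacylglycerol acyltransferase, the enzyme that adds the last acyl chain of triacylglycerol, and its locus is known for an effect on the oil content of maize embryos. VP1 and LEC1 are therefore regulators, and DGAT1-2 is an enzyme of the pathway.

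Both regulators were listed almost wholly in the embryo, and the enzyme was listed everywhere but was highest there. Levels are in TPM (transcripts per 1000000), which are scaled for transcript length and for the library, so they can be set beside each other between genes within an assay. The total RNA entries summed to 159407 to 395863 TPM per library, with 377604 in embryo and 321426 in endosperm, and the ribosome-bound libraries each to about 1000000 TPM. Levels are therefore not compared between assays. Within total RNA the sums also differ between tissues, and the folds, shares and class means given below are not corrected for this. TPM keeps no read depth, so a value of 0 is given as listed at 0. In such bulk tissue, fewer cells of a type and less RNA per cell cannot be told apart. The embryo label could not be checked with independent markers, because no marker symbol could be tied to an identifier in the files.

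In total RNA, vp1 was listed at 34.51 TPM in embryo and 0.62 TPM in endosperm. Outside the kernel 19 of 24 libraries listed it at 0, and the highest of the others was Primary Root(6DAS) with 0.03 TPM. SAM(V4) had 0.02 TPM, and SAM(V1), SAM (V3) and Ear leaf had 0.01 TPM each. The embryo and the endosperm thus both lay above every non-kernel library, and the embryo value was 55.7 times the endosperm value. The embryo held 98.0% of the summed vp1 TPM of the 26 libraries. Among 8639 gene models with at least 5 TPM in embryo, 17, or 0.197%, had a share at least as large. Each such count of embryo shares, here and below, includes the gene itself. Within the embryo vp1 ranked 1425th of 37069 gene models.

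The level of lec1 in total RNA was 7.39 TPM in embryo and 0.01 TPM in endosperm. It was listed at 0 in 21 of 24 non-kernel libraries and at 0.01 TPM in 1cm Tassel, Ear leaf and SAM(V1). Unlike vp1, lec1 was no higher in endosperm than in the highest non-kernel libraries. The embryo held 99.5% of its summed TPM, a share reached by 6 of the 8639 gene models, or 0.0695%. Its rank in embryo was 6587th of 37069, so on the TPM scale lec1 was the lowest of the 3 genes there and vp1 the highest, with dgat1-2 between them.

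**Figure D1:**
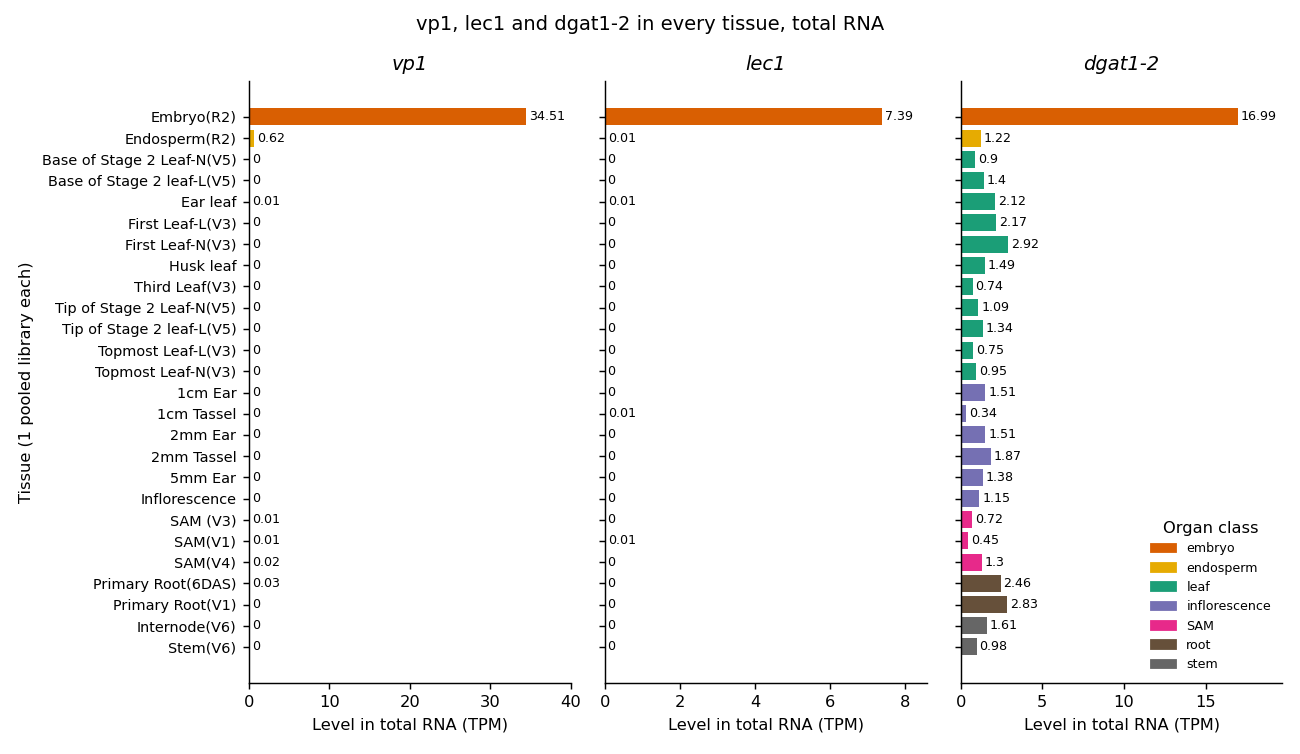
Level of vp1, lec1 and dgat1-2 in total RNA (horizontal axis, TPM, a separate scale for each gene), 1 bar per tissue library, coloured by organ class and with no error bar because each tissue is a single library. The embryo bar is the longest in each panel, at 34.51, 7.39 and 16.99 TPM, and dgat1-2 alone has visible bars in all tissues.

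The enzyme gene dgat1-2 had 16.99 TPM in embryo and 1.22 TPM in endosperm in total RNA. The 24 non-kernel libraries ran from 0.34 TPM in 1cm Tassel through a median of 1.36 to 2.92 TPM in First Leaf-N(V3). The embryo was the highest of the 26 libraries, whereas the endosperm was the 16th, with 14 non-kernel libraries above it. The embryo value was 13.9 times that of endosperm, 12.5 times the non-kernel median and 5.82 times the highest non-kernel library. It made up 32.6% of the summed dgat1-2 TPM, and 272 of the 8639 gene models, or 3.15%, had an embryo share at least as large. In embryo dgat1-2 ranked 3034th of 37069 gene models.

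Ribosome-bound RNA is the RNA recovered with ribosomes, a measure of what is being translated. There vp1 had 155.12 TPM in embryo and 1.84 TPM in endosperm, while 17 of 18 non-kernel libraries listed it at 0 and 5mm Ear had 0.02 TPM. The embryo value was 84.3 times the endosperm value, and it held 98.8% of the summed TPM, a share reached by 15 of 13397 gene models with at least 5 TPM in embryo, or 0.112%. The order embryo, endosperm and then the remaining organs was that of total RNA. The gene lec1 had 8.77 TPM in embryo and was listed at 0 in the other 19 libraries, endosperm included. No fold is given for lec1 here, since its reference values are 0.

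Ribosome-bound dgat1-2 stood at 77.01 TPM in embryo and 7.03 TPM in endosperm. The 18 non-kernel libraries ran from 5.44 TPM in SAM (V3) through a median of 14.68 to 28.0 TPM in First Leaf-N(V3). Endosperm was the 18th of 20 libraries, with 16 non-kernel libraries above it. The embryo was 10.95 times endosperm, 5.24 times the non-kernel median and 2.75 times the highest non-kernel library, and it held 21.1% of the summed TPM. Of the 13397 gene models, 488, or 3.64%, had an embryo share at least as large.

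**Figure D2:**
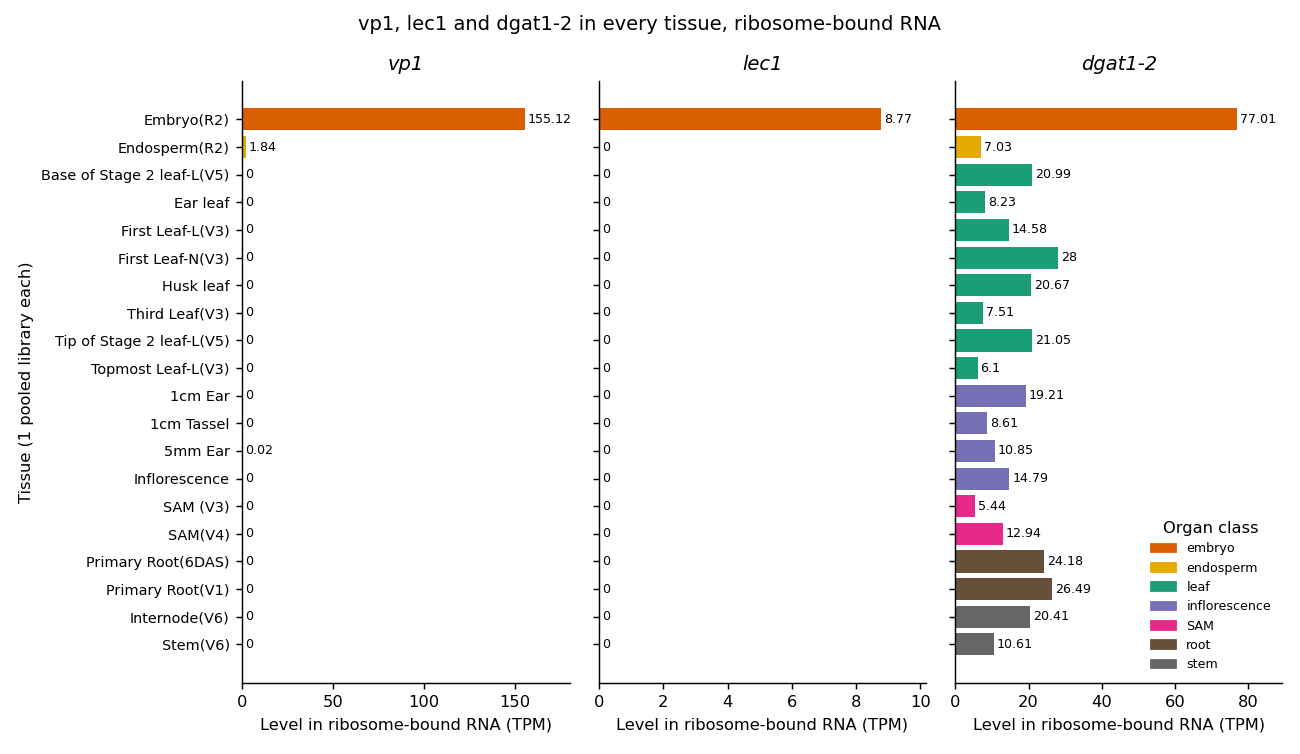
Level of vp1, lec1 and dgat1-2 in ribosome-bound RNA (horizontal axis, TPM, a separate scale for each gene), 1 bar per tissue library, coloured by organ class and with no error bar because each tissue is a single library. The embryo bars reach 155.12, 8.77 and 77.01 TPM, and lec1 has no other bar.

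Embryo and endosperm are both parts of the kernel, and the contrast between them asks how far the 3 genes separate the oil-storing part from the rest. With 1 library each there is no test, and a difference of at least 2 on the log2(TPM + 1) scale, a 4-fold difference, was counted. This scale understates the change of genes with low values. In total RNA the embryo minus endosperm difference was 4.45 for vp1, 3.05 for lec1 and 3.02 for dgat1-2. All 3 genes were past the 4-fold rule. So were 9.43% of the 24997 entries listed at 1 TPM or more in 2 or more libraries. Neither vp1 nor lec1 is among these entries, as each reached 1 TPM in the embryo alone. The share thus leaves out genes of their kind. The median entry was itself 0.60 higher in embryo. In ribosome-bound RNA the differences were 5.78 for vp1, 3.29 for lec1 and 3.28 for dgat1-2. Again all 3 were past the rule, beside 14.2% of 25807 entries and a median entry 0.62 higher. Here lec1 alone is not among the entries. Under other scalings and pseudocounts the 3 genes stayed past the rule, with differences of at least 2.07.

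**Figure D3:**
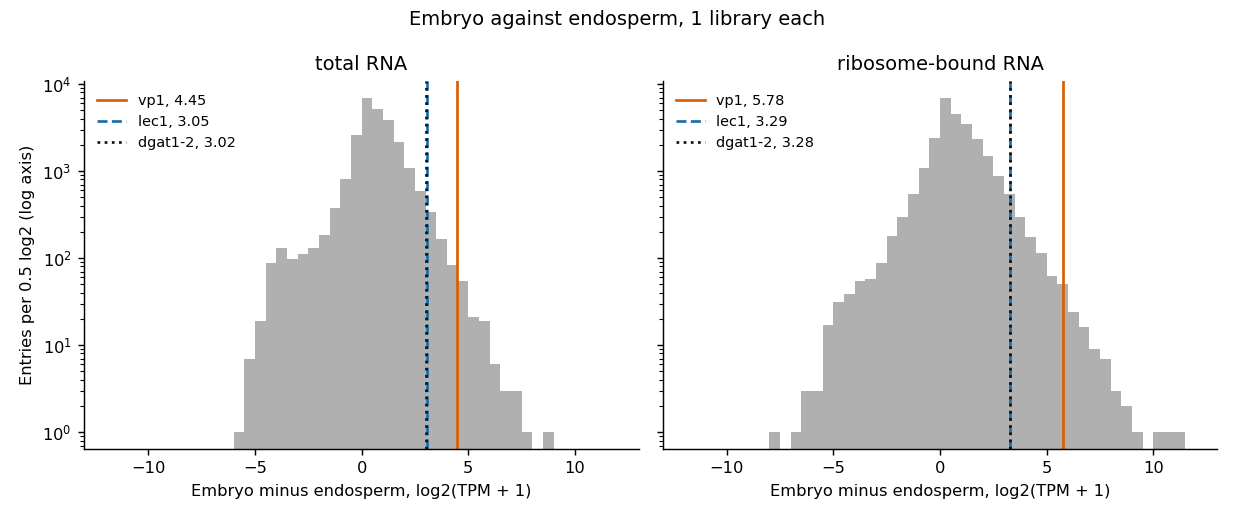
Number of entries (vertical log axis) by embryo minus endosperm difference in log2(TPM + 1) (horizontal axis, bins of 0.5), for entries listed at 1 TPM or more in 2 or more libraries, in total RNA (left) and ribosome-bound RNA (right). Vertical lines mark vp1 at 4.45 and 5.78, lec1 at 3.05 and 3.29 and dgat1-2 at 3.02 and 3.28, all to the right of the bulk of entries. The bars leave out vp1 and lec1 in total RNA and lec1 in ribosome-bound RNA, which reached 1 TPM in the embryo alone.

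The embryo was next set against the organs outside the kernel, taken as the mean of the 5 class means of leaf, inflorescence, SAM, root and stem. The test was limma with Benjamini-Hochberg adjustment over all entries, and a call needed an adjusted p under 0.05 and a log2 difference of at least 1. Tissues of a class served as the units, the single embryo library was assumed to vary as tissues within a class do, and p-values thus measure the spread between tissues, not between replicate libraries. In total RNA dgat1-2 rose in embryo by 2.91 ± 0.38 (SE) on the log2(TPM + 1) scale, with a limma adjusted p of 4.96e-06. Calls of higher embryo levels made up 10.9% of the 24997 entries tested, and the median entry was 0.38 higher. The 2 regulators had at least 1 TPM in a single library and so were not tested. Their differences on the same scale were 5.14 for vp1 and 3.07 for lec1.

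In ribosome-bound RNA dgat1-2 was 2.36 ± 0.69 (SE) higher in embryo, which missed the threshold with a limma adjusted p of 0.0609. The SE was larger than in total RNA, and the call depended on the reference and the scaling. The limma adjusted p was 0.0177 against leaf alone and 0.0073 after quantile normalization, with a range of 0.0073 to 0.0929 over the alternatives that gave a p. The difference for vp1 was 7.29 ± 0.14 (SE) with a limma adjusted p of 1.14e-15. That p is no independent support, since vp1 passed the filter on low values only through the embryo and endosperm libraries and was listed near 0 elsewhere. The share of entries called higher in embryo was 3.1% of 25807. The ribosome-bound difference for lec1 was 3.29, again untested.

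Endosperm levels were set against the same organs. The dgat1-2 difference was -0.11 ± 0.38 (SE) in total RNA (limma adjusted p = 0.865) and -0.92 ± 0.69 (SE) in ribosome-bound RNA (limma adjusted p = 0.364). Neither passed the test, while the median entry lay at -0.40 and -0.78 in these contrasts, and the total RNA difference was 0.19 and the ribosome-bound difference 0.17 after quantile normalization. In ribosome-bound RNA vp1 was 1.50 ± 0.14 (SE) higher in endosperm (limma adjusted p = 1.04e-06), with the same reservation about the filter. In total RNA its untested difference was 0.69. Entries called higher in endosperm made up 5.41% of those tested in total RNA and 2.48% in ribosome-bound RNA.

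Outside the kernel only dgat1-2 had levels to compare. Its total RNA mean in root was 2.65 ± 0.26 TPM (SD, n = 2). Leaf came next with 1.44 ± 0.69 TPM (SD, n = 11). The stem mean was 1.30 ± 0.45 TPM (SD, n = 2). Inflorescence followed with 1.29 ± 0.52 TPM (SD, n = 6) and SAM with 0.82 ± 0.43 TPM (SD, n = 3). Primary Root(V1) had 2.83 TPM and Primary Root(6DAS) 2.46 TPM. Both root values lay above every inflorescence, SAM and stem library but inside the leaf range of 0.74 to 2.92 TPM, whose median was 1.34. Internode(V6) had 1.61 TPM and Stem(V6) 0.98 TPM, and the SAM values were 1.3 TPM at V4, 0.72 TPM at V3 and 0.45 TPM at V1. The 6 inflorescence libraries ran from 0.34 to 1.87 TPM with a median of 1.445. Leaf, stem, inflorescence and SAM ranges all overlapped.

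The ribosome-bound order of class means for dgat1-2 was the same. Root had 25.3 ± 1.63 TPM (SD, n = 2), leaf 15.9 ± 8.01 TPM (SD, n = 8), stem 15.5 ± 6.93 TPM (SD, n = 2), inflorescence 13.4 ± 4.66 TPM (SD, n = 4) and SAM 9.19 ± 5.30 TPM (SD, n = 2). The root libraries, with 26.49 TPM at V1 and 24.18 TPM at 6DAS, again lay above all stem, inflorescence and SAM libraries and inside the leaf range of 6.1 to 28.0 TPM. The inflorescence values were 19.21 TPM in 1cm Ear, 14.79 TPM in Inflorescence, 10.85 TPM in 5mm Ear and 8.61 TPM in 1cm Tassel. Internode(V6) had 20.41 TPM and Stem(V6) 10.61 TPM, and SAM was at 12.94 TPM at V4 and 5.44 TPM at V3. Leaf, stem, inflorescence and SAM ranges overlapped here as well.

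**Figure D4:**
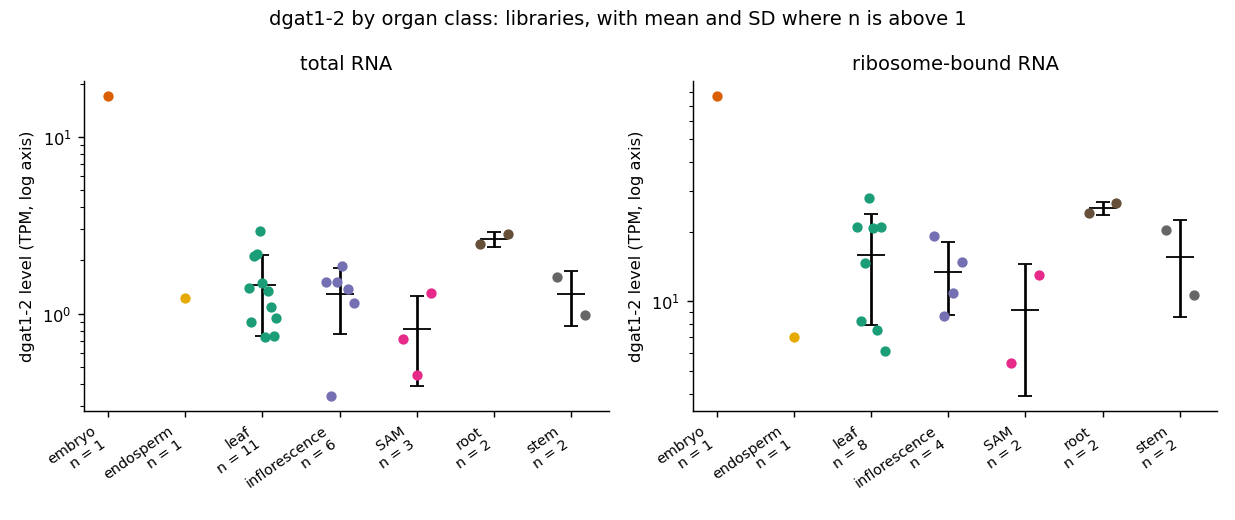
Level of dgat1-2 (vertical log axis, TPM) by organ class in total RNA (left) and ribosome-bound RNA (right). Points are tissue libraries, and horizontal and vertical black lines are the mean and SD of classes with more than 1 library. The embryo point, at 16.99 and 77.01 TPM, lies above every other point, and root is the highest class mean outside the kernel, at 2.65 and 25.3 TPM.

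None of these class differences in dgat1-2 passed the test against leaf. In total RNA the root minus leaf difference was 0.62 ± 0.285 (SE, limma adjusted p = 0.0704) and that of SAM was -0.40 ± 0.24 (SE, limma adjusted p = 0.149). Inflorescence differed by -0.08 ± 0.19 (SE, limma adjusted p = 0.716) and stem by -0.06 ± 0.285 (SE, limma adjusted p = 0.908). The median entry was 0.65 higher in root, 0.74 in SAM, 0.65 in inflorescence and 0.35 in stem, so the root difference of dgat1-2 was close to that of the median entry. Entries called in either direction made up 40.4% for root, 50.2% for SAM, 47.3% for inflorescence and 29.7% for stem. With quantile normalization, which removes the shift of the median, the SAM difference became -1.04 and passed (limma adjusted p = 7.34e-05). It ranged from -1.50 to -0.25 over the alternatives, with limma adjusted p from 7.34e-05 to 0.468. Under quantile normalization the inflorescence difference became -0.76 (limma adjusted p = 0.00011). That was short of the absolute log2 difference of 1 that a call needed. The leaf class held 4 leaf positions sampled as a pair marked L and N, letters the labels do not explain, and with each pair averaged to 1 unit, 7 leaf units in place of 11, no call on dgat1-2 changed. Averaging gave a limma adjusted p of 1.55e-05 for embryo against the non-kernel organs and 0.0858 for root against leaf.

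In ribosome-bound RNA the differences of dgat1-2 from leaf were 0.80 ± 0.52 (SE, limma adjusted p = 0.211) in root and -0.67 ± 0.52 (SE, limma adjusted p = 0.303) in SAM. Inflorescence differed by -0.13 ± 0.41 (SE, limma adjusted p = 0.811) and stem by 0.07 ± 0.52 (SE, limma adjusted p = 0.939). Calls made up 46.1%, 49.8%, 57.7% and 49.3% of all entries in these 4 contrasts, in the order root, SAM, inflorescence and stem, and the median entry was higher by 0.98, 0.81, 0.90 and 1.01. After quantile normalization dgat1-2 fell in SAM by 1.81, in inflorescence by 1.37 and in stem by 1.23 on the log2 scale (limma adjusted p = 0.000675, 0.000585 and 0.0136). The stem difference thus turned its direction with the scaling, and without Internode(V6) it was -0.38. The root difference was -0.09 in total RNA and -0.32 in ribosome-bound RNA after quantile normalization, so its direction turned too, and neither passed.

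Single leaves differed in dgat1-2 by as much as the organ classes did. In total RNA the leaves marked L and N had 2.17 and 2.92 TPM at the First Leaf(V3), 0.75 and 0.95 TPM at the Topmost Leaf(V3), 1.4 and 0.9 TPM at the base and 1.34 and 1.09 TPM at the tip of the Stage 2 leaf(V5). The leaf marked N was the higher in both V3 pairs and the lower in both V5 pairs. The only pair in ribosome-bound RNA was the First Leaf(V3), with 14.58 TPM for L and 28.0 TPM for N. Neither regulator was listed above 0 in any of these leaves. First Leaf-N(V3) and the roots held the places just below embryo in both assays, whereas Ear leaf was 6th of 26 in total RNA with 2.12 TPM and 16th of 20 in ribosome-bound RNA with 8.23 TPM. Across the 20 tissues with both assays, dgat1-2 levels on the log2 scale had a Pearson r of 0.824 and a Spearman rho of 0.784. Without the embryo, which lies far from the rest, r was 0.716 and rho 0.747 over 19 tissues, given as a description.

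How much of each RNA was bound by ribosomes was described by the difference log2(ribosome-bound TPM + 1) minus log2(total TPM + 1). Since both assays have different TPM bases, the value was read against the median gene with at least 1 TPM of total RNA in the same tissue. In embryo the difference was 2.14 for vp1 and 2.12 for dgat1-2, which was 1.04 and 1.02 above the median gene and put them at the 85.2 and 84.7 percentile. The lec1 difference was 0.22, at the 20.2 percentile and 0.88 below the median gene. So in the embryo vp1 and dgat1-2 stood above and lec1 below the median gene, and under both other settings lec1 was 0.96 and 1.00 below it. These are single libraries with no test.

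For dgat1-2 this difference lay above the median gene in all 20 tissues. In some of them, all outside the kernel, dgat1-2 itself had less than the 1 TPM of total RNA asked of the genes behind the median. The excess was 1.02 in embryo and 0.63 in endosperm, and in the 18 non-kernel libraries it ran from 0.22 in SAM (V3) through a median of 1.14 to 1.81 in First Leaf-L(V3). The embryo and the endosperm both lay inside the non-kernel range. With gene models of both assays rescaled to a common sum the excess was 0.89 in embryo and 0.975 in endosperm, and with a pseudocount of 0.1 it was 0.93 and 1.01. The order of the 2 kernel parts thus depended on both choices. The non-kernel excess ran from 0.74 through a median of 1.54 to 2.03 after rescaling. With the pseudocount of 0.1 it ran from 0.75 through a median of 1.56 to 2.10. The low end depended on the pseudocount where dgat1-2 was below 1 TPM of total RNA. In SAM (V3), at 0.72 TPM, the excess went from 0.22 to 0.88 with the pseudocount of 0.1. In 1cm Tassel, at 0.34 TPM, it went from 0.40 to 1.54. Both kernel parts lay inside the non-kernel range but below its median in each setting.

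**Figure D5:**
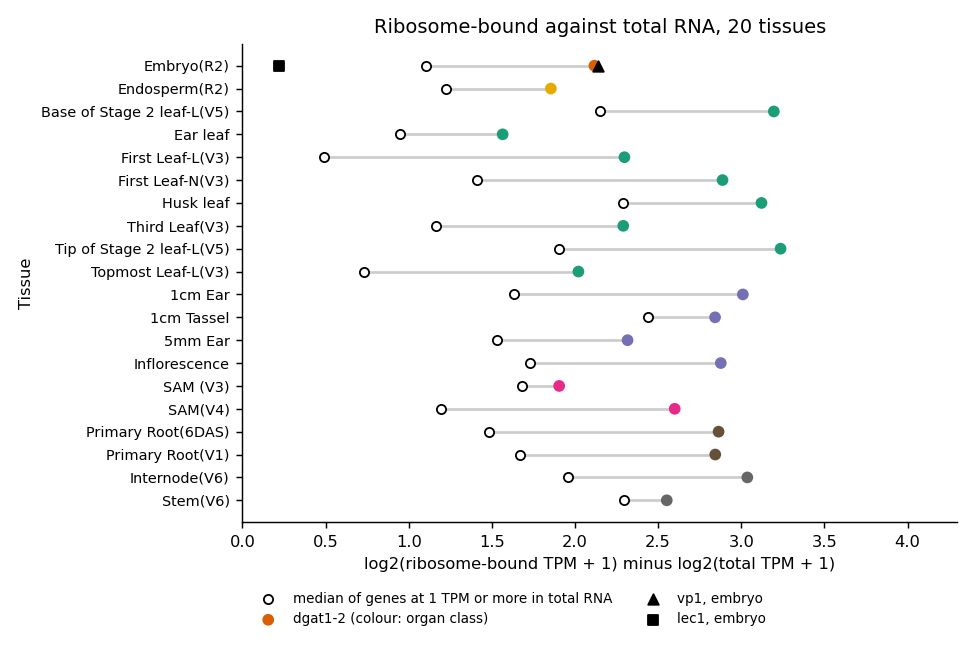
Log2(ribosome-bound TPM + 1) minus log2(total TPM + 1) (horizontal axis) in the 20 tissues with both assays, for dgat1-2 (filled points, coloured by organ class) and for the median gene of the tissue (open points). In embryo vp1 (triangle, 2.14) and dgat1-2 (2.12) lie above and lec1 (square, 0.22) below the median gene.

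The pair list gave each of the 3 genes few partners. It holds 365234 pairs without score or pool, so which tissue pool a pair came from is not known here, and the median gene has 7 partners. The list gave vp1 2 partners, lec1 1 and dgat1-2 3, and 26.6%, 17.1% and 33.7% of the listed genes had as many or fewer. No pair joined any of the 3 genes to another, and they shared 0 partners. All 6 partners were themselves listed with many genes, from 89 to 1738, which 93.9% to 99.9% of listed genes fell short of. Genes with many partners fill more of the pairs, and the partners of other genes were not compared. These high numbers are therefore not read as particular to the 6. No source used here names these partners or gives their roles.

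The partners of vp1 were Zm00001d017252, with 1738 partners of its own, and Zm00001d026240, with 378. In total RNA Zm00001d026240 had 26.35 TPM in embryo and 0.49 TPM in endosperm. Embryo was its highest library of the 26, closely followed by 2mm Tassel with 25.18 TPM. This partner was also high in SAM, at 15.9 ± 4.11 TPM (SD, n = 3), and its inflorescence mean was 15.2 ± 5.92 TPM (SD, n = 6). In both organs vp1 was at or near 0. Its ribosome-bound level was 35.76 TPM in embryo, 4th of 20 libraries, and 1.07 TPM in endosperm. The other partner, Zm00001d017252, was listed in every organ, with 6.52 TPM in embryo, 4.19 TPM in endosperm and 1.29 to 7.34 TPM elsewhere in total RNA. Both partners of vp1 were thus present in the embryo, and both were also present outside the kernel.

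The single partner of lec1, Zm00001d037034, had 315 partners. It was at 25.44 TPM in embryo and 8.29 TPM in endosperm in total RNA, and 2mm Tassel was its highest library with 37.61 TPM. In ribosome-bound RNA it had 84.85 TPM in embryo, 47.32 TPM in endosperm and up to 167.35 TPM in SAM (V3). Its level was thus highest outside the kernel, where lec1 was listed at or near 0.

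The 3 partners of dgat1-2 were not highest in embryo. Zm00001d045764, with 1567 partners, had 13.59 TPM in embryo and 9.33 TPM in endosperm in total RNA, and 17.84 TPM in SAM(V4). Zm00001d043911, with 240 partners, had 6.16 TPM in embryo and 4.63 TPM in endosperm, and 19.77 TPM in Primary Root(V1). Zm00001d046937, with 89 partners, had 0.38 TPM in embryo, the lowest of its 26 libraries, 3.91 TPM in endosperm and 34.67 TPM in First Leaf-L(V3). The tissue in which dgat1-2 was highest was therefore the one in which this partner was lowest in total RNA. In ribosome-bound RNA Zm00001d046937 had 5.69 TPM in embryo, 17th of 20 libraries.

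The shortest path through the list took 3 steps from dgat1-2 to vp1, 3 from lec1 to dgat1-2 and 4 from lec1 to vp1. Such paths were common in the list, as 80.4% of listed genes lay within 3 steps of dgat1-2 and 99.8% within 4 steps of lec1. Of 15 possible pairs among the 6 partners, 3 were listed: Zm00001d017252 with Zm00001d045764, Zm00001d017252 with Zm00001d046937, and Zm00001d037034 with Zm00001d045764. The share for other genes with as many partners was not computed. The 3 pairs are therefore not read as a link between vp1, lec1 and dgat1-2.

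Gene models with a pattern like that of each gene were ranked by Pearson r of log2(TPM + 1) across tissues, among 15516 gene models in total RNA and 22079 in ribosome-bound RNA with at least 5 TPM in at least 1 library. For vp1 and lec1 the tissues reduce to the embryo against nearly empty libraries, so r mainly says that a gene model was listed in the embryo and hardly elsewhere. In total RNA 26 gene models had an r above 0.99 with vp1 and 23 with lec1, and in ribosome-bound RNA 11 and 22. None had an r above 0.99 with dgat1-2 in either assay. The correlation between vp1 and lec1 was 0.99 in total RNA and 0.98 in ribosome-bound RNA, while dgat1-2 had an r of 0.82 with vp1 and 0.83 with lec1 in total RNA, and of 0.56 and 0.62 in ribosome-bound RNA.

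The nearest to vp1 in total RNA over 26 tissues was Zm00001d002952 (r = 0.9993), with 25.2 TPM in embryo, 0.39 TPM in endosperm and at most 0.03 TPM elsewhere. Zm00001d035559 (r = 0.9986) had far more RNA in embryo, 415.56 TPM, beside 0.74 TPM in endosperm. Zm00001d026037 was among the 5 nearest to vp1 in both assays, with 14.28 TPM of total and 59.9 TPM of ribosome-bound RNA in embryo. These gene models shared with vp1 a low endosperm level above that of the other organs.

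The nearest to lec1 were listed at 0 or close to it in endosperm too. Zm00001d029446 and Zm00001d018876 were among the 5 nearest in both assays, with 15.1 and 6.89 TPM of total RNA in embryo and at most 0.01 TPM in any other library. Their ribosome-bound embryo levels were 14.71 and 33.74 TPM.

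For dgat1-2 the nearest was Zm00001d014499 in total RNA (r = 0.907, n = 26 tissues), with 11.36 TPM in embryo, 0.67 TPM in endosperm and up to 1.9 TPM in Primary Root(V1). Zm00001d053284 (r = 0.888) had 12.76 TPM in embryo and up to 3.97 TPM in the same root. Without the embryo these r values were 0.72 and 0.75 over 25 tissues. In ribosome-bound RNA the nearest was Zm00001d052434 (r = 0.871, n = 20 tissues), with 20.55 TPM in embryo, 1.47 TPM in endosperm and up to 9.7 TPM in First Leaf-N(V3). Without the embryo its r with dgat1-2 was 0.80 over the other 19 tissues. Not all of the 5 nearest in ribosome-bound RNA were highest in embryo. Zm00001d008752 had 13.44 TPM in embryo and 20.88 TPM in Husk leaf. Zm00001d023238 had 60.21 TPM in embryo and 81.43 TPM in First Leaf-N(V3). The rest of the 5 were highest in embryo. Of the 5 nearest to dgat1-2 none was shared between assays.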

How the data were processed

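Per the labels, total RNA and ribosome-bound RNA were both deposited in TPM. The submitters' processing notes name B73 RefGen_v4, HISAT, StringTie, RSEM, Bowtie 1.1.2, SAMtools 1.9 and cutadapt 1.9.1 without the role of each. The protein pair list was deposited by the authors as identifiers alone. The small RNA and circRNA data were not used here. In the total RNA file, 2 records that shared 1 line were separated. The read depth behind TPM is unknown, so counting intervals are not given.

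The 3 genes, the lists and the tests were chosen with earlier results of these data known. Organ classes follow the tissue names in the labels. Entries listed at 1 TPM or more in 2 or more libraries entered limma 3.58.1 in R 4.3.3 on log2(TPM + 1), with a mean-variance trend and 1 fit per assay over all organ classes. Calls needed an absolute log2 difference of at least 1 and a p under 0.05 after Benjamini-Hochberg adjustment. Named gene models were the 3 genes, all their partners and, from the 5 with the highest r per gene and assay, some examples. Alternatives covered the pseudocount, scaling, filter, reference and single libraries.

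Of 50738 identifiers in the files, 0 matched the 49888 genes of the reference table, which is of another assembly (NAM-5.0). It names the 3 genes without these identifiers. The pathway and marker lists therefore had 0 measurable members, and no sequence or coordinate is shown.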

Additional observations from a re-analysis of the deposited data

Results flagged for a closer look

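Groups of 4 to 10 libraries were searched for a library far from the others. Of 5 groups with values above 0, 2 held such a library, both at levels near 0. In total RNA lec1 was at 0.01 TPM in 1cm Tassel and listed at 0 in the other inflorescence libraries. In ribosome-bound RNA vp1 was at 0.02 TPM in 5mm Ear and listed at 0 in the other inflorescence libraries. Chance is taken to give such a library in about 1 group in 20, but that rate does not apply here, since any value above 0 among zeros is picked out. Both tissues are among the highest non-kernel libraries used as a reference in the untested differences given for vp1 and lec1 against the highest non-kernel library.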

How the results depend on the processing

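No paired analysis was possible because the numbers of libraries within a class only name them and match nothing between organ classes. The L and N leaves pair within the leaf class alone, and averaging them, an alternative chosen after seeing the data, changed no call on the 3 genes. Under the alternatives, 277 values of the 3 genes kept their direction and call, and 15 newly passed the threshold. Another 6 moved and 10, all of dgat1-2, turned their direction. The 277 include values of vp1 and lec1 that stayed below the filter, had no p and so could not change side. They also include ratios and partner numbers, which have no p threshold, so the 277 do not measure robustness. The changed values are differences on the log2 scale, except where counts are named, and their cause was not tested unless stated. The regulators newly passed without a filter or after rescaling, which is no support, since they were high in kernel libraries alone and near 0 elsewhere. Without a filter they had these values: vp1 5.14 and lec1 3.07 in total RNA, lec1 3.29 in ribosome-bound RNA. With gene models rescaled to a common sum, vp1 entered the test at 6.94 in embryo and 2.03 in endosperm of total RNA. It had the same values, 6.94 and 2.03, when the most abundant leaf gene model was left out as well, an alternative chosen after seeing the data. That choice also gave dgat1-2 -1.50 for SAM against leaf in total RNA, and in ribosome-bound RNA 2.22 for embryo, -1.43 for SAM and -0.70 for stem against leaf. Quantile normalization gave dgat1-2 -1.04 for SAM against leaf in total RNA, and in ribosome-bound RNA 2.27 for embryo, -1.37 for inflorescence, -1.81 for SAM and -1.23 for stem, the last turned from 0.07. It also turned endosperm against non-kernel organs to 0.19 and 0.17 and root against leaf to -0.088 and -0.32, in total and ribosome-bound RNA in that order, with none past the threshold. Rescaling turned stem against leaf to 0.26 in total RNA. Leaving out single libraries gave -0.25 to 0.14 for stem in total RNA, -0.31 to 0.049 for inflorescence and -0.38 to 0.51 for stem in ribosome-bound RNA, each against leaf. Leaf alone as the reference gave 2.37 for dgat1-2 in ribosome-bound embryo. Against the highest non-kernel library, with no test, embryo was higher by 5.11 (vp1), 3.05 (lec1) and 2.20 (dgat1-2) in total RNA and by 7.26, 3.29 and 1.43 in ribosome-bound RNA.

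Counts of called entries moved more. In total RNA, embryo against non-kernel organs went from 3115 to 1895 with quantile normalization and to 12355 against leaf alone. Endosperm went from 3732 to 5604 with a pseudocount of 0.1, 5950 rescaled, 6356 without the top leaf gene model and 6248 against leaf alone. Embryo against endosperm went from 2936 to 6913 with a pseudocount of 0.1 and 1581 with quantile normalization. Root against leaf went from 10099 to 5921 with quantile normalization, and from 6058 to 10058 with single libraries left out. Stem against leaf went from 7434 to 11516 with a pseudocount of 0.1 and 11968 rescaled, and from 3418 to 7384 with single libraries left out. In ribosome-bound RNA, embryo against non-kernel organs went from 1183 to 8025 against leaf alone, and embryo against endosperm from 4146 to 8236 with a pseudocount of 0.1 and 2619 with quantile normalization. Leaving out single libraries gave 5752 to 11528 for root (11885 with all) and 6740 to 12441 for stem (12714 with all). The lowest of these 4 ranges came without Primary Root(6DAS) or without Internode(V6). With Spearman's rho, the 5 most similar gene models shared 0 with Pearson's r for vp1, lec1 and dgat1-2 in total RNA, and 0, 3 and 2 in ribosome-bound RNA.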
